A study of Homo sapiens with 8 samples.

Results

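The EGF family of growth factors, its receptors and their feedback inhibitor were followed in U2OS cells, an established human osteosarcoma line, by RNA-seq. The 10 genes were the ligands AREG, EREG, HBEGF, TGFA, BTC and NRG1, the receptors EGFR, ERBB2 and ERBB3, and the inhibitor ERRFI1. They were taken by their gene symbols, matched through the GENCODE 29 annotation to 10 of the 58735 genes measured. All cells had been transduced with a lentiviral short hairpin RNA and selected as stable lines with puromycin. The WT or control cells carried a control shRNA and the KD cells carried an shRNA against WSB2, a substrate receptor of a ubiquitin ligase. Each line was sequenced without stimulation and after 5 h of TNF-α, an inflammatory cytokine and NF-κB activator, with 2 libraries in each of the 4 groups. Which WSB2 hairpin was sequenced and the concentration of TNF-α were not given in the sources used here. Nothing says that the 2 libraries of a group came from separate cultures, so p-values measure the spread between these libraries, which may be technical.

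EGF family ligands are made as membrane-anchored precursors and are released by metalloproteases of the ADAM family. Soluble ligand binds EGFR or ERBB3, the receptors pair with each other or with ERBB2, which has no known ligand of its own, and the paired kinases signal through RAS and ERK. ERRFI1, also called MIG6, is induced by this signalling and blocks the EGFR kinase, and several of the ligand genes are themselves induced by ERK and by inflammatory cytokines.

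Promoters are shown for the 2 ligands called higher in KD than in control cells with TNF-α (AREG and HBEGF), for EREG, the neighbour of AREG, and for ERRFI1. AREG and EREG lie on the plus strand of chromosome 4, EREG from 74365143 to 74388751 and AREG from 74445134 to 74455009, and BTC follows on the minus strand from 74744759 to 74794686 (GRCh38). RefSeq promoters, 250 bases before and 50 after a transcript start, were found for 8 of the 10 genes. Both strands were searched for GGGNNNNNCC, a loose form of the NF-κB site, for TGANTCA, the AP-1 site, and for TGACGTCA, the CRE bound by CREB and ATF factors. Capitals mark the matches, and sites of different motifs did not overlap. On GRCh38.p14 the windows are chr4:74444886-74445185 on the plus strand for AREG, chr4:74364895-74365194 on the plus strand for EREG, chr5:140346554-140346853 on the minus strand for HBEGF and chr1:8026260-8026559 on the minus strand for ERRFI1, each printed 5′ to 3′.
AREG: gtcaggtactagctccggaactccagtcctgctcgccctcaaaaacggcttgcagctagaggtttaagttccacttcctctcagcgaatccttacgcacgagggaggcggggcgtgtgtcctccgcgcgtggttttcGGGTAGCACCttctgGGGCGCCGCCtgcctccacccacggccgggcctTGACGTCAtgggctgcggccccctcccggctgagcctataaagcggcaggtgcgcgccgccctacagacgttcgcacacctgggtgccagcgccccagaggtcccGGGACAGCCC
EREG: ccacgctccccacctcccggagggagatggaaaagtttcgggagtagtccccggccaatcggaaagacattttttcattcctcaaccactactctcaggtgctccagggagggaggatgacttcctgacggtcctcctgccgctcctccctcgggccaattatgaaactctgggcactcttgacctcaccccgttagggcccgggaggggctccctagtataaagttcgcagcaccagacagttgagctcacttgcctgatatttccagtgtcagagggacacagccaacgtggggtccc
HBEGF: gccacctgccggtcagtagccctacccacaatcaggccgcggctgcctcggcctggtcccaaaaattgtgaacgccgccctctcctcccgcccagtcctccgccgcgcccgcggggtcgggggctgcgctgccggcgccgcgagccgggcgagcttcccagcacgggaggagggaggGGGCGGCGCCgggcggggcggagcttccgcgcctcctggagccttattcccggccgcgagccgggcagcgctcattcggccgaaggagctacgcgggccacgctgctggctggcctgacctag
ERRFI1: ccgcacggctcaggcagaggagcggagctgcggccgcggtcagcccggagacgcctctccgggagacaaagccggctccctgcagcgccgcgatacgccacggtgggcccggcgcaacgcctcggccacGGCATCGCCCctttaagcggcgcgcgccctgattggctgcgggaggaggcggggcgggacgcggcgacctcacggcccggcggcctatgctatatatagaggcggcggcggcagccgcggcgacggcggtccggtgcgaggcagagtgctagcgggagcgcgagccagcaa

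The AREG window held 3 matches to the loose NF-κB pattern and 1 CRE, which began 65 bases before the start. The HBEGF window held 1 match to the NF-κB pattern, 73 bases before the start, and the ERRFI1 window 1 match, 121 bases before it. The EREG window held none of these letters. Of the windows not printed, 1 of TGFA had 6 matches to the NF-κB pattern, some overlapping, and its other had 1. BTC had 5 and EGFR 3, some overlapping. The other EGFR window held 2 AP-1 sites and the ERBB2 window 1. TGFA, EGFR and ERBB2 were not called in KD against control cells with TNF-α, and BTC was not tested. The NF-κB pattern is common, and 58.7% of the 35116 promoters of this length held it, against 7.71% for the AP-1 site and 1.85% for the CRE. A match describes the sequence only, and binding was not measured in these libraries.

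The libraries held 15601098 to 18677023 reads. WSB2 was measured at 27.7 and 28 FPKM (fragments relative to gene length and sequencing depth) in unstimulated control cells and at 8.38 and 8.52 in unstimulated KD cells. With TNF-α its level was 25 and 25.3 FPKM in control and 9.00 and 9.18 FPKM in KD cells. The NF-κB target NFKBIA rose with TNF-α in control cells, from a mean of 22.4 ± 3.34 to 157 ± 5.33 FPKM (SD, n = 2 each). Within groups, the 2 unstimulated control libraries differed most from each other. Their variance was 30.1 times that of sampling noise on average over genes. It was 7.23 times for unstimulated KD, 4.31 for stimulated control and 2.45 for stimulated KD cells. The 2 unstimulated KD libraries stood apart from the other 6. Mitochondrial genes took 4.10% and 4.42% of their reads against 1.11% to 2.04%, the mean GC content of their reads was 49.9% and 49.4% against 52.5% to 53.2%, and they had a read in 26225 and 26397 genes against 22072 to 22957. Values with GC content and gene length corrected for in each library are therefore given beside the comparisons that use these libraries, for the members named and for the leading genes of the pathway. Of 7 osteoblast and mesenchymal markers 5 were at 1 FPKM or more in every library, and the remaining 2, COL1A2 and SP7, were below 0.5. Their summed level was 538 to 551 FPKM in the unstimulated KD libraries and 682 to 776 in the others. Without TNF-α, 4 of the 7 were called lower in KD cells and 1, RUNX2, was called higher (log2 fold change 0.46). Of these calls 2 held after the correction, and that of RUNX2 did not (0.25). Of 5 epithelial markers, EPCAM, CDH1 and KRT19 were below 0.5 FPKM in every library, while the keratins KRT8 and KRT18 were high and lower in unstimulated KD cells. KRT8 had 321 ± 58.1 FPKM in unstimulated control and 134 ± 11 FPKM in unstimulated KD cells, and KRT18 had 166 ± 29.2 and 74.5 ± 0.38 FPKM (SD, n = 2 each). Both were called lower (log2 fold changes of -1.25 and -1.13), also after the correction (-0.97 and -0.69). KRT19 went the other way, with 2 reads in unstimulated control and 29 in unstimulated KD cells. It was called higher (log2 fold change 0.36), also after the correction (0.98), which can overshoot at so low a level. The summed level of the 5 was 202 to 217 FPKM in the unstimulated KD libraries and 426 to 549 in the others, and its part in the results without TNF-α was not tested. The 4 leukocyte and 3 endothelial markers were below 0.5 FPKM in all 8 libraries, and CD68 was at 0.

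Among the ligands, HBEGF had the largest response to TNF-α of the 9 members tested, and AREG and HBEGF were the 2 members called higher in KD than in control cells with TNF-α. HBEGF encodes heparin-binding EGF-like growth factor, an EGFR ligand. It was measured at 5.92 and 6.09 FPKM in unstimulated control cells and at 5.17 and 4.93 in unstimulated KD cells. With TNF-α it reached 17.3 and 18.5 FPKM in control and 32.3 and 32.9 in KD cells. No 2 of the 4 groups overlapped, the stimulated KD libraries were highest and the unstimulated KD libraries lowest.

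AREG encodes amphiregulin, another EGFR ligand. Its levels were 3 and 2.66 FPKM in unstimulated control cells and 3.12 and 3.43 in unstimulated KD cells. With TNF-α they were 3.93 and 3.97 FPKM in control and 7.97 and 8.37 in KD cells. The stimulated KD libraries lay above all others, while the other 3 groups spanned 2.66 to 3.97 FPKM. EREG encodes epiregulin, a ligand of EGFR and ERBB4, and was low. It was 0.315 and 0.293 FPKM in unstimulated control cells, 0.697 and 1.02 in unstimulated KD cells, 0.473 and 0.442 in stimulated control cells and 0.941 and 1.15 in stimulated KD cells. All 4 KD libraries lay above all 4 control libraries, and the KD groups overlapped each other.

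TGFA encodes transforming growth factor α, an EGFR ligand. It was 2.80 and 3.24 FPKM in unstimulated control cells, 4.49 and 4.78 in unstimulated KD cells, 3.23 and 3.49 in stimulated control cells and 5.34 and 5.49 in stimulated KD cells. As for EREG, all KD libraries lay above all control libraries. NRG1 encodes neuregulin 1, a ligand of ERBB3 and ERBB4. It was 3.23 and 3.54 FPKM in unstimulated control cells, 4.25 and 4.37 in unstimulated KD cells, 6.09 and 5.78 in stimulated control cells and 5.87 and 5.39 in stimulated KD cells. The stimulated groups overlapped each other and lay above both unstimulated groups.

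BTC, which encodes betacellulin, an EGFR and ERBB4 ligand, had 25 reads over all 8 libraries and did not pass the filter on low reads, so it was not tested. The 2 unstimulated control libraries had 3 and 4 reads and the unstimulated KD libraries 10 and 5. With TNF-α there was 1 read in each control library and 1 and 0 in the KD libraries. The group sums, with exact 95% Poisson intervals that cover counting error only, were 7 (2.81 to 14.4), 15 (8.40 to 24.7), 2 (0.242 to 7.22) and 1 (0.0253 to 5.57) reads in the same order. The library without a read allows up to 3 reads, or 0.0674 FPKM.

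Of the receptors, EGFR, which binds most of these ligands, was 1.53 and 2.20 FPKM in unstimulated control cells and 3.35 and 3.65 in unstimulated KD cells. With TNF-α it was 4.22 and 4.39 FPKM in control and 6.18 and 6.29 in KD cells. The 4 groups were separate and ordered from unstimulated control to stimulated KD cells. ERBB2 was 10.8 and 11.6 FPKM in unstimulated control cells, 7.19 and 6.90 in unstimulated KD cells, 10.1 and 10.5 in stimulated control cells and 9.75 and 9.50 in stimulated KD cells. Only the unstimulated KD libraries fell below 9.50 FPKM. Exons of ERBB2 share 7.41% of its length with PGAP3 and MIEN1 on the other strand, and whether the counting used the strand was not given in the sources used here.

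ERBB3, a receptor for neuregulins with little kinase activity, stayed below 0.4 FPKM in every library. It was 0.236 and 0.396 FPKM in unstimulated control cells, 0.207 and 0.229 in unstimulated KD cells, 0.202 and 0.129 in stimulated control cells and 0.154 and 0.112 in stimulated KD cells. The highest value was in 1 of the unstimulated control libraries. ERRFI1 was 10.2 and 13.2 FPKM in unstimulated control cells, 19.4 and 20.3 in unstimulated KD cells, 25.7 and 22.8 in stimulated control cells and 37.7 and 36.0 in stimulated KD cells. Its 4 groups were separate, in the same order as those of EGFR.

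**Figure D1:**
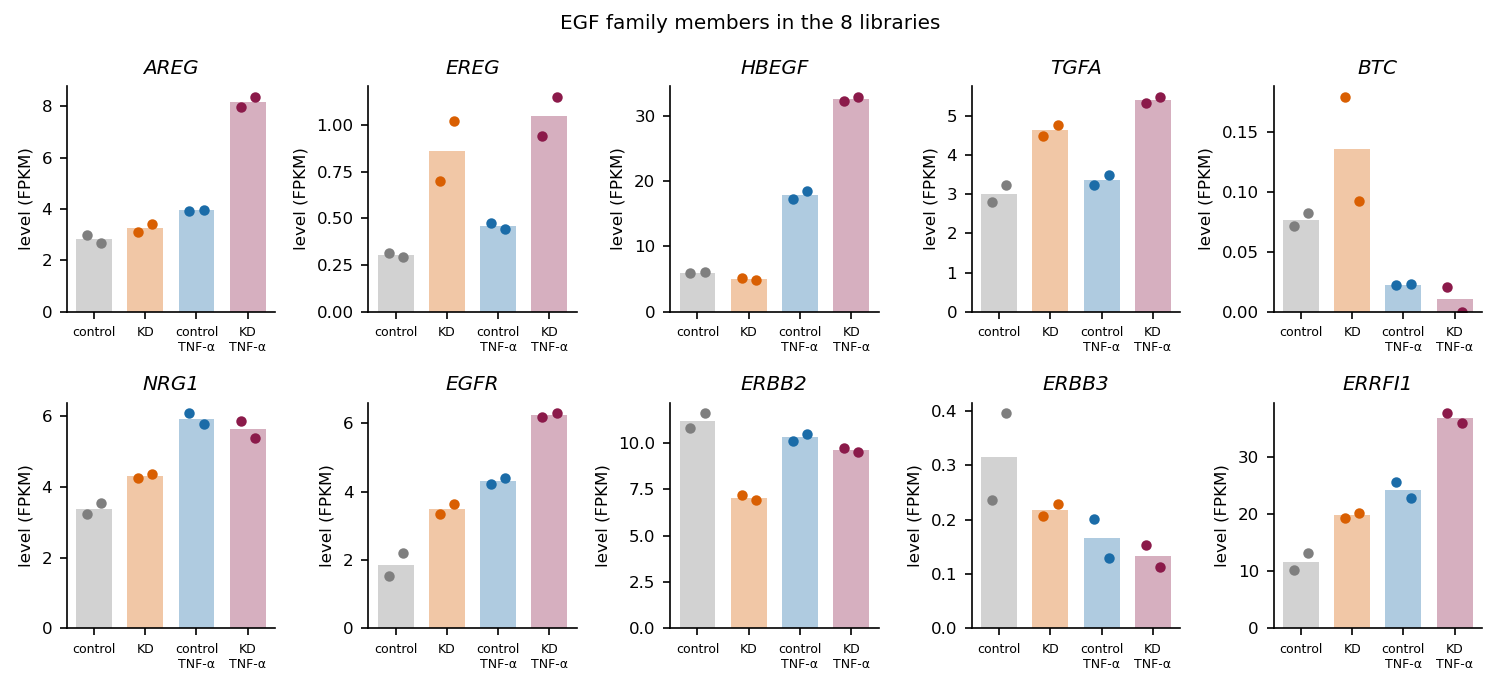
Level in FPKM (vertical axis, from 0, with its own scale in each panel) of the 10 genes in unstimulated control and KD cells and in the same cells after 5 h of TNF-α. Points are the 2 libraries of a group and bars are their means. HBEGF and AREG are highest in the stimulated KD libraries (32.3 and 32.9 FPKM for HBEGF), EREG and TGFA are higher in all KD than in all control libraries, and ERBB2 is lowest in the unstimulated KD libraries.

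On the FPKM scale, which allows for gene length, ERRFI1 had the highest mean of the 10 genes in every group, from 11.7 ± 2.14 FPKM (SD, n = 2) in unstimulated control to 36.8 ± 1.21 FPKM (SD, n = 2) in stimulated KD cells. In unstimulated control cells ERBB2 followed at 11.2 ± 0.585 FPKM (SD, n = 2) and could not be told from ERRFI1, since the libraries overlapped. HBEGF came next, and NRG1 overlapped TGFA, which overlapped AREG. EGFR was below these, ERBB3 and EREG overlapped each other, and BTC was lowest. With TNF-α, HBEGF stood above ERBB2 in both lines, with 17.9 ± 0.815 FPKM for control and 32.6 ± 0.465 FPKM for KD cells (SD, n = 2 each). AREG was below NRG1 and EGFR in stimulated control cells and above both in stimulated KD cells. In stimulated KD cells NRG1 and TGFA were the only neighbours in this order whose libraries overlapped. The summed level of the 6 ligands was 15.3 and 15.9 FPKM in unstimulated control cells, 17.9 and 18.6 in unstimulated KD cells, 31.0 and 32.2 in stimulated control cells and 52.4 and 53.3 in stimulated KD cells. HBEGF made up 38.3% to 38.6%, 26.5% to 28.8%, 55.7% to 57.4% and 61.6% to 61.7% of these sums.

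Differences between groups were tested with limma on log2(FPKM + 1) over 16528 genes, and genes were called where the p-value adjusted by Benjamini-Hochberg was under 0.05. The 4 comparisons share groups and are not independent of each other. On this scale the fold changes of genes near or below 1 FPKM, such as EREG and ERBB3, are understated, so ratios of mean FPKM are given beside them. The correction for GC content and length subtracts from log2(FPKM + 1) a curve fitted over all genes, whatever their level. It can therefore overshoot in genes near or below 1 FPKM. RNA from a culture cannot tell a change in the number of expressing cells from a change in RNA per cell.

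The first comparison asks whether WSB2 knockdown changed the members in cells stimulated with TNF-α. AREG and HBEGF were called higher in KD cells and none lower, 2 of 9 members tested, where 0.0605% of all genes tested were called higher and 0.0545% lower. AREG was 2.07-fold higher by the ratio of mean FPKM, a log2 fold change of 0.89 (standard error 0.0985, 95% interval 0.66 to 1.12, adjusted p = 0.0332). HBEGF was 1.82-fold higher, a log2 fold change of 0.83 (standard error 0.076, interval 0.66 to 1.01, adjusted p = 0.0125). The median log2 fold change of the 9 members was 0.49, against 0.00 over all genes tested.

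Both calls held with only the 4 stimulated libraries in the fit (adjusted p = 0.0355 for AREG and 0.0249 for HBEGF) and without either unstimulated control library (adjusted p up to 0.0133 and 0.00953). They were lost when other libraries were left out. Leaving out any 1 of the 6 libraries other than the unstimulated controls gave adjusted p-values of 0.12 to 0.377 for AREG and 0.0585 to 0.265 for HBEGF, with log2 fold changes of 0.86 to 0.92 and 0.79 to 0.88. Without both unstimulated KD libraries the log2 fold changes stayed at 0.89 and 0.83, with adjusted p-values of 0.114 and 0.0523. After the correction for GC content and length they were 0.89 (adjusted p = 0.00894) and 0.82 (adjusted p = 0.00705).

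The other 7 members tested did not pass. The largest of their differences were in ERRFI1, at 0.59 on the log2 scale (1.52-fold, adjusted p = 0.172), and in TGFA, at 0.56 (1.61-fold, adjusted p = 0.131). EREG had the highest ratio of mean FPKM of all members, 2.29-fold, with a log2 fold change of 0.49 (interval 0.25 to 0.72, adjusted p = 0.178) and 82 reads in the stimulated control against 197 in the stimulated KD libraries. EGFR differed by 0.45 (1.45-fold, adjusted p = 0.348). The intervals of these 4 members lay above 0 before adjustment for the number of genes. ERRFI1 passed when either unstimulated control library was left out (adjusted p = 0.0305 and 0.0306). ERBB2 (-0.09), NRG1 (-0.06) and ERBB3 (-0.04) had intervals that included 0, from -0.29 to 0.16 for NRG1.

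In unstimulated cells, 7 of the 9 members tested differed between KD and control cells, 5 higher and 2 lower. This count stands in a comparison in which 29.8% of all genes were called higher and 30.2% lower. The higher members were ERRFI1 (log2 fold change 0.72, adjusted p = 0.00137), EGFR (0.66, adjusted p = 0.00288), EREG (0.51, adjusted p = 0.00334), TGFA (0.49, adjusted p = 0.0041) and NRG1 (0.28, adjusted p = 0.036). By the ratio of mean FPKM, EREG was 2.83-fold and EGFR 1.88-fold higher. ERBB2 was lower by a log2 fold change of -0.60 (adjusted p = 0.000536) and HBEGF by -0.21 (adjusted p = 0.0418). AREG, at 0.16 (interval -0.07 to 0.39), and ERBB3, at -0.11 (interval -0.28 to 0.06), were not called. The median of the 9 members was 0.28, against 0.00 over all genes tested.

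**Figure D2:**
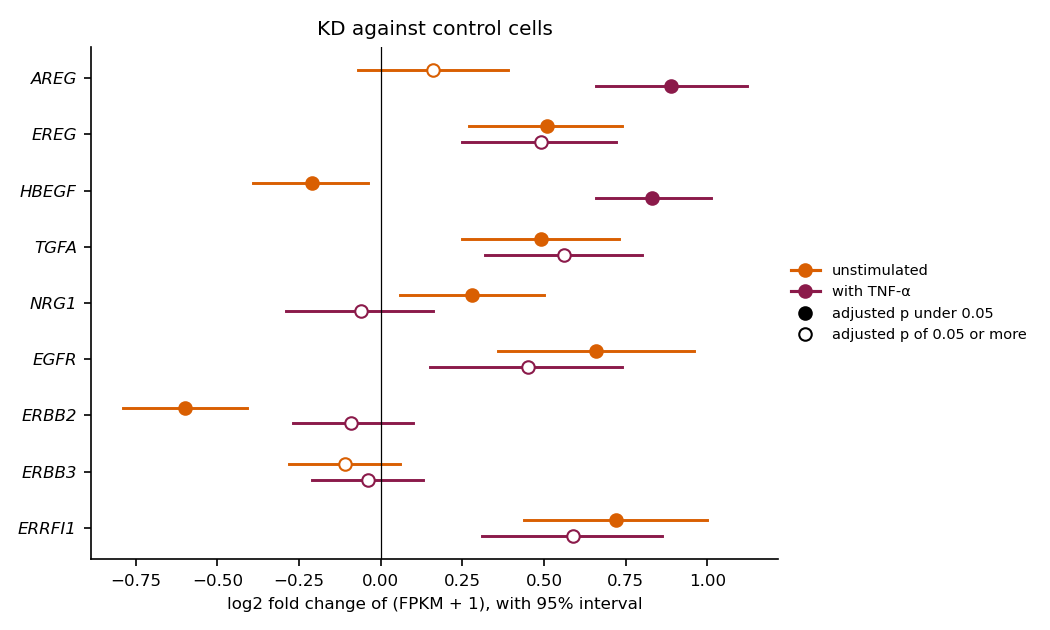
Log2 fold change of FPKM + 1 (horizontal axis) between KD and control cells for the 9 members tested, in unstimulated cells and with TNF-α. Lines are 95% intervals from limma, and filled points have an adjusted p under 0.05. AREG and HBEGF are filled with TNF-α, and the 2 intervals of HBEGF lie on opposite sides of 0, at -0.21 without and 0.83 with TNF-α, although the first was 0.03 when FPKM was scaled to total reads.

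The shift of the unstimulated KD libraries followed GC content across all genes. When genes were ordered by the GC content of their longest transcript and divided into 5 equal groups, the median log2 fold change between KD and control cells without TNF-α fell from 0.56 at 23.1% to 41.2% GC to -0.55 at 58.1% to 83.9% GC. EREG, at 36.1% GC, had a log2 fold change of 0.51, and the 555 genes within 1 percentage point of its GC content had a median of 0.65. The mean of EREG was below 1 FPKM in both groups, where this scale understates a change more than at higher levels. By the ratio of mean FPKM EREG was 2.83-fold higher, and on log2(FPKM + 0.1) it was at 1.23. The 0.51 and the 0.65 are therefore not on a par. ERBB2, at 57.5% GC, had -0.60 against a median of -0.40 over 1028 such genes. NRG1 had 0.28 against 0.23, HBEGF -0.21 against -0.12 and AREG 0.16 against 0.14. EGFR, with 0.66 against 0.03, ERRFI1, with 0.72 against 0.26, and TGFA, with 0.49 against 0.11, lay farther above genes of like GC content.

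After the correction for GC content and length, 4 members were called in unstimulated cells. ERRFI1 (0.49, adjusted p = 0.00628), EGFR (0.45, adjusted p = 0.00428) and TGFA (0.40, adjusted p = 0.0066) were higher, and ERBB2 (-0.37, adjusted p = 0.00231) was lower. EREG (-0.18), NRG1 (-0.16) and HBEGF (0.04) were no longer called and changed sign. For EREG, at means of 0.304 and 0.861 FPKM, the correction can overshoot. The differences of HBEGF and NRG1 were also lost in the uncorrected fit when 1 library was left out, whichever of the KD or stimulated libraries that was (adjusted p from 0.0675 to 0.176 for HBEGF and from 0.0598 to 0.144 for NRG1). They were lost as well without unstimulated control replicate 2 for HBEGF (adjusted p = 0.0576) and replicate 1 for NRG1 (adjusted p = 0.0882). When FPKM was scaled to total reads, which moved the median of all genes by 0.13 in this comparison, HBEGF was at 0.03 (adjusted p = 0.795) and AREG was called higher (0.38, adjusted p = 0.0116). The state of these 2 libraries and the effect of WSB2 knockdown without TNF-α cannot be told apart.

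**Figure D3:**
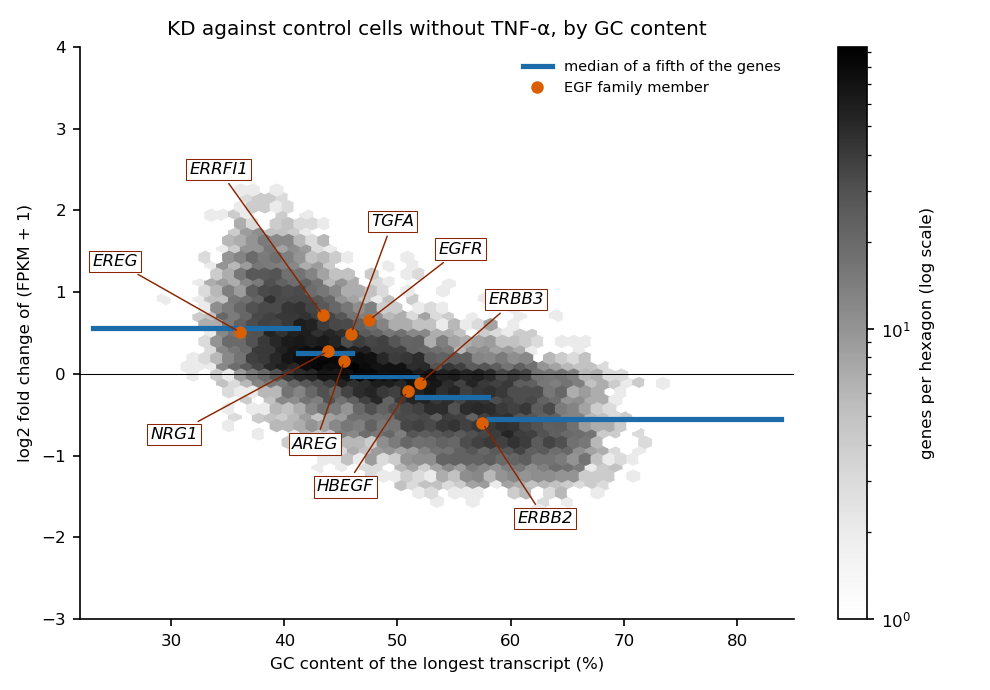
Log2 fold change of FPKM + 1 between unstimulated KD and control cells (vertical axis) against the GC content of the longest transcript in percent (horizontal axis). Grey hexagons hold all genes tested, darker for more genes on a log scale, blue lines are medians of 5 equal groups of genes by GC content, and orange points are the 9 members. The medians fall from 0.56 to -0.55, and EGFR, ERRFI1 and TGFA lie above the medians at their GC content.

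In control cells, TNF-α raised 4 of the 9 members tested and lowered none, where 3.1% of all genes were called higher and 1.14% lower. HBEGF rose 2.98-fold, a log2 fold change of 1.43 (interval 1.25 to 1.61, adjusted p = 5.72e-05). ERRFI1 rose 2.07-fold (log2 fold change 1.00, adjusted p = 0.00377), EGFR 2.31-fold (0.90, adjusted p = 0.00855) and NRG1 1.75-fold (0.66, adjusted p = 0.00913). This comparison does not use the unstimulated KD libraries except for the shared estimate of the spread. AREG, at 0.37 on the log2 scale (1.4-fold, interval 0.14 to 0.60, adjusted p = 0.0928), was not called, nor were EREG at 0.16, TGFA at 0.12, ERBB2 at -0.11 and ERBB3 at -0.17. AREG passed after the correction for GC content and length (0.42, adjusted p = 0.0261). The calls of EGFR and NRG1 were lost without stimulated control replicate 1 (adjusted p = 0.0634 and 0.0889) and without replicate 2 (adjusted p = 0.0832 and 0.0713), so that 2 members were called then. The median of the 9 members was 0.37, against 0.01 over all genes tested.

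In KD cells, TNF-α raised 6 of the 9 members tested and lowered none, in a comparison where 31.1% of all genes were called higher and 31.4% lower and which uses the unstimulated KD libraries. HBEGF rose 6.46-fold, a log2 fold change of 2.47 (interval 2.30 to 2.65, adjusted p = 2.62e-06). AREG rose 2.5-fold (1.10, adjusted p = 9.43e-05), ERRFI1 1.86-fold (0.86, adjusted p = 0.000528) and EGFR 1.78-fold (0.69, adjusted p = 0.0022). ERBB2 (0.40, adjusted p = 0.00314) and NRG1 (0.32, adjusted p = 0.0198) rose less. With the correction for GC content and length HBEGF was at 2.21, AREG at 1.19, ERRFI1 at 1.11, EGFR at 0.80 and NRG1 at 0.69, all called, while ERBB2 was at 0.04 (adjusted p = 0.59). EREG (0.83, adjusted p = 0.000402) and TGFA (0.27, adjusted p = 0.0311) were called higher only with that correction, against 0.14 and 0.19 without it, and ERBB3 was called lower only with it (-0.27, adjusted p = 0.0103). EREG and ERBB3 were near or below 1 FPKM, where the correction can overshoot. Their ratios of mean FPKM were 1.22 and 0.61. When FPKM was scaled to total reads, the median of all genes moved from -0.01 to -0.19 in this comparison. HBEGF, AREG, ERRFI1 and EGFR then remained called, and ERBB2 was at 0.06 and NRG1 at 0.00. The call of NRG1 was also lost without either unstimulated KD or either stimulated KD library (adjusted p from 0.0527 to 0.134).

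**Figure D4:**
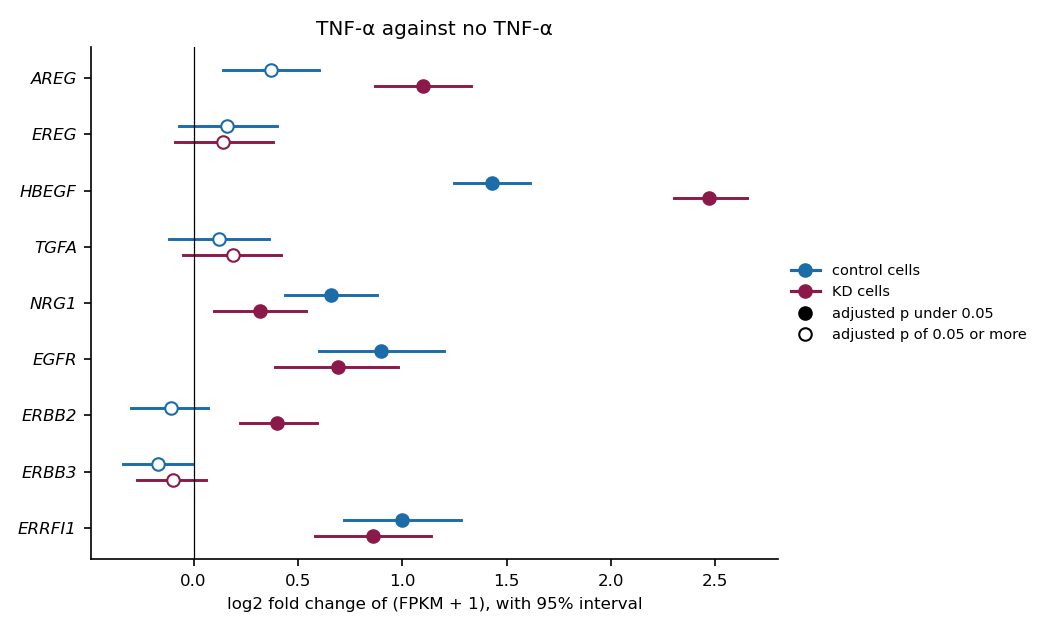
Log2 fold change of FPKM + 1 (horizontal axis) between TNF-α and no TNF-α for the 9 members tested, in control and in KD cells. Lines are 95% intervals from limma, and filled points have an adjusted p under 0.05. HBEGF has the largest value in both lines, 1.43 in control and 2.47 in KD cells. The intervals of the 2 lines do not overlap for HBEGF, AREG and ERBB2.

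Whether the response to TNF-α differed between KD and control cells was tested by the interaction of knockdown and TNF-α, in which 23.8% of all genes were called higher and 22.3% lower. Of the 9 members, 3 were called with a higher signed response in KD cells and none with a lower one. For ERBB2 the response was -0.11 in control cells, not called, and 0.40 in KD cells. After the correction for GC content and length these were -0.24 and 0.04, and neither was called. The difference was 1.04 on the log2 scale for HBEGF (interval 0.80 to 1.29, adjusted p = 0.00119), 0.73 for AREG (interval 0.41 to 1.05, adjusted p = 0.00495) and 0.51 for ERBB2 (interval 0.25 to 0.78, adjusted p = 0.00853). With the correction for GC content and length these were 0.78, 0.77 and 0.28, all 3 still called, and under scaling to total reads they were 0.78, 0.48 and 0.25, of which ERBB2 was not called (adjusted p = 0.153). For HBEGF and AREG the interaction passed under each of the 16 alternatives run, with adjusted p-values up to 0.00907 and 0.027. Each of those fits kept at least 1 of the 2 unstimulated KD libraries, which this test needs, so they cannot tell how far it rests on them. NRG1 had the largest difference in the other direction, -0.34 (interval -0.66 to -0.03, adjusted p = 0.0717), which was 0.09 after the correction for GC content and length. It was called lower when FPKM was scaled to total reads (-0.59, adjusted p = 0.0153), which moved the median of all genes by -0.14, and by voom on the recovered reads (-0.42, adjusted p = 0.037). NRG1 (-0.39, adjusted p = 0.0345) and EGFR (-0.38, adjusted p = 0.0415) were called lower without unstimulated control replicate 2. EREG (-0.02), TGFA (0.07), EGFR (-0.21), ERBB3 (0.07) and ERRFI1 (-0.14) had intervals that included 0. EREG was called higher with the correction for GC content and length (0.68, adjusted p = 0.00984), which can overshoot at its level.

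The members chosen for comparison of their profiles were AREG, EREG and HBEGF. For each, the genes most like it were those with the smallest root mean square difference over the 8 libraries, after log2(FPKM + 1) was centred on its mean. For AREG, whose own root mean square deviation was 0.489, they were AC073896.2 (0.124), SYP (0.137), SH3PXD2A-AS1 (0.144), SPRY2 (0.153) and GPR3 (0.154). For HBEGF, with a deviation of 1.02, they were KRTAP2-3 (0.149), NLRP3 (0.151), MAFF (0.165), DUSP5 (0.167) and SDC4 (0.189). For EREG, with a deviation of 0.27, the nearest was LUCAT1 (0.074), and the next was TGFA (0.0802), another member, followed by SLC20A1 (0.0852), NABP1 (0.0992) and SINHCAF (0.104). SPRY2 and DUSP5 are known feedback inhibitors of ERK signalling, and NLRP3 is an inflammasome sensor. DUSP5 had means of 3.73, 4.32, 12.1 and 26.2 FPKM in unstimulated control, unstimulated KD, stimulated control and stimulated KD cells. AC073896.2, SH3PXD2A-AS1 and LUCAT1 are annotated as antisense transcripts. Reads in any exon shared with a gene on the other strand cannot be told apart without strand. Whether these 3 share exons was not examined. AC073896.2 had 65 reads in all. The scale understates changes near or below 1 FPKM, as in EREG, so genes with smaller ratios of mean FPKM can lie near it. SLC20A1 had means of 35.6 FPKM in unstimulated control and 46.8 in unstimulated KD cells, against 0.304 and 0.861 FPKM for EREG. The likeness describes 8 libraries in 4 groups, and genes whose groups move alike differ little by construction.

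A list of 27 other genes of the pathway was read beside the members, of which 23 were tested. The ligand EPGN, the neuregulin NRG4, the receptor ERBB4 and the ubiquitin ligase CBLC did not pass the filter on low reads. In the comparison of KD with control cells with TNF-α, none of the 23 was called by limma (nor by voom on the recovered reads, where SH3KBP1 had the lowest adjusted p, 0.22), 2 had an unadjusted p under 0.05, and their median log2 fold change was 0.03, against 0.00 over all genes. The 2 were SH3KBP1, an adaptor of EGFR endocytosis (0.35, adjusted p = 0.204), and RNF41, a ubiquitin ligase that acts on ERBB3 (-0.22, adjusted p = 0.542). TNF-α in control cells raised 2 and lowered none. These were RHBDF2, a cofactor of the ligand-releasing protease ADAM17, whose mean went from 6.11 ± 0.405 to 9.77 ± 0.145 FPKM (SD with n = 2 each, log2 fold change 0.60, adjusted p = 0.0111), and LRIG1, an inhibitor of ERBB receptors, from 2.83 ± 0.392 to 4.65 ± 0.128 FPKM (0.56, adjusted p = 0.0335).

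Without TNF-α, 18 of the 23 differed between KD and control cells, 11 higher and 7 lower, where 29.8% and 30.2% of all genes were called. Among the genes of ligand release, 3 of 7 were higher and 3 lower. The proteases ADAM9, which had 22.9 ± 5.57 FPKM in control and 61.9 ± 3.82 FPKM in KD cells (SD, n = 2 each), and ADAM10 had log2 fold changes of 1.42 and 1.2, and FRMD8, which stabilizes the complex of RHBDF proteins and ADAM17, had -0.60. With the correction for GC content and length these were 0.78, 0.37 and -0.04, and the last was not called. Among the 6 genes listed as adaptors, 3 were higher and 3 lower, led by SOS2 (1.57), SOS1 (1.25) and SHC1 (-0.74). These were 0.98, 0.48 and -0.32 after the correction. Of 7 genes of receptor turnover and inhibition 4 were higher and 1 lower. CBL, a ubiquitin ligase for EGFR, had 0.85, LRIG2 had 0.53 and RNF41 -0.67, which were 0.55, -0.04 (adjusted p = 0.771) and -0.74 after the correction. Of the 3 other ligands tested, EGF was higher (0.30, adjusted p = 0.00598), from 0.535 ± 0.00282 to 0.893 ± 0.0403 FPKM (SD, n = 2 each), and after the correction it was at 0.04 (adjusted p = 0.704). Of the 18 genes called, 10 kept their call and direction with that correction, 5 lost the call and 3 turned and were called the other way. The 3 were GAB1 (0.38 without and -0.39 with the correction), CBLB (0.28 and -0.36) and RHBDF1 (-0.33 and 0.22). NRG2 and LRIG1 were called only with it, which makes 9 higher and 6 lower. EGF, GAB1, CBLB and NRG2 were near or below 1 FPKM in these cells, where the correction can overshoot.

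**Figure D5:**
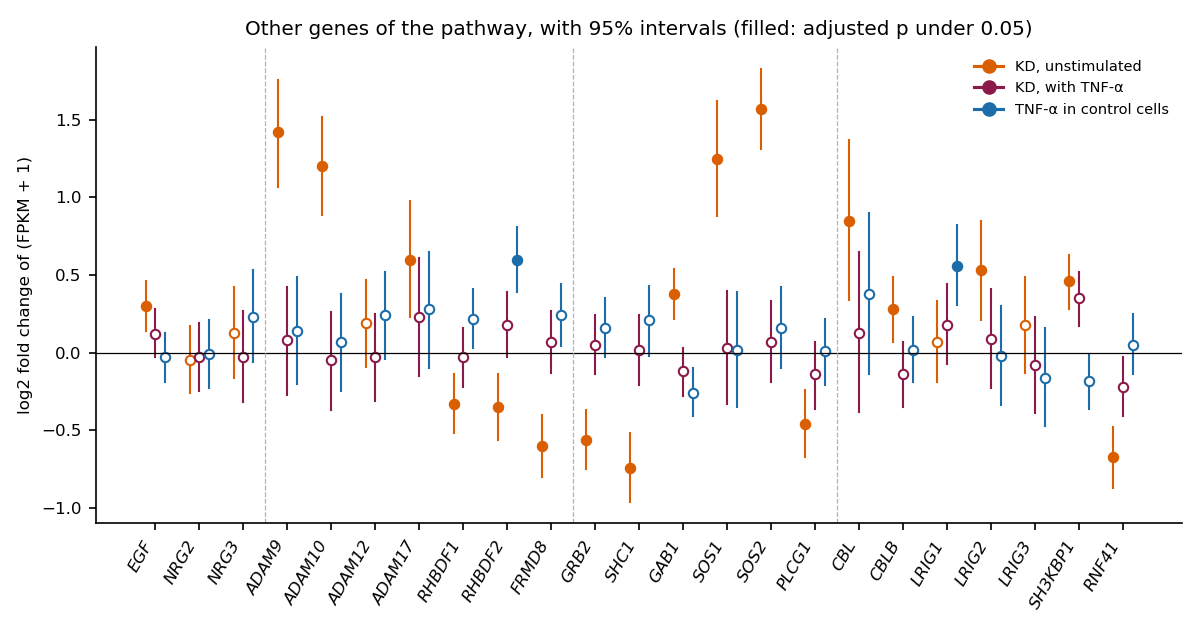
Log2 fold change of FPKM + 1 (vertical axis) for the 23 other pathway genes tested, in KD against control cells without and with TNF-α and for TNF-α in control cells. Lines are 95% intervals from limma, filled points have an adjusted p under 0.05, and dashed lines divide other ligands, ligand release, adaptors, and receptor turnover and inhibition. In KD against control cells with TNF-α no point is filled, without TNF-α 18 are, and TNF-α in control cells has 2, RHBDF2 and LRIG1.

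In KD cells, TNF-α raised 8 of the 23 and lowered 10, where 31.1% and 31.4% of all genes were called. SOS2 (-1.34), SOS1 (-1.2), ADAM9 (-1.2) and ADAM10 (-1.19) fell and RHBDF2 (1.13), SHC1 (0.96), FRMD8 (0.91), LRIG1 (0.67) and RNF41 (0.51) rose. With the correction for GC content and length SOS2 (-0.79), SOS1 (-0.48), ADAM9 (-0.60) and ADAM10 (-0.44) were still called lower, and RHBDF2 (0.58), SHC1 (0.49), FRMD8 (0.30), LRIG1 (0.34) and RNF41 (0.53) higher. Of the 18 genes called, 12 kept their call and direction with it and 6 lost the call. ADAM17, NRG2 and NRG3 were called only with it, which makes 8 higher and 7 lower. NRG2 and NRG3 were near or below 1 FPKM, where the correction can overshoot. NRG2 was at 0.01 without and -0.61 with it, at a ratio of mean FPKM of 1.03. ADAM9 went from 59.2 and 64.6 FPKM in the unstimulated KD libraries to 26.2 and 26.7 with TNF-α, while the control libraries had 19.0 and 26.8 without and 23.8 and 26.4 FPKM with TNF-α. The unstimulated KD libraries were thus the ones that stood apart for ADAM9, as they did for ERBB2 among the members.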

How the data were processed

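Total RNA of 8 U2OS libraries was sequenced for the authors on an Illumina NovaSeq instrument. Per the labels' processing notes, fastp, HISAT2 2.0.5, featureCounts 1.5.0-p3 and DESeq2 1.20.0 were used on GRCh38, and the study's methods name edgeR. The authors deposited FPKM values for 58735 genes, with gene lengths. Each value times gene length is a whole multiple, within 0.05, of 1 read of its library for 100% of the values, and the library sizes equal the median-of-ratios sizes over all 8 libraries. These reads gave depth and filters and were used in the voom fit listed below. The deposited values are FPKM, so the main test was on the log scale. The count test of the study's methods was not run on the recovered reads.

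Genes were kept (16528) if 2 libraries had 10 reads or more, scaled to the median depth, and all libraries together 15 or more. limma 3.58.1 (R 4.3.3) was fitted to log2(FPKM + 1) with 1 mean per group, a trend on mean expression and 4 residual degrees of freedom. The script was tested on simulated data. Alternatives were a pseudocount of 0.1, scaling to total reads or to the upper quartile, no filter, a mean of at least 1 CPM, the replicate number as a block, voom on the recovered reads, a correction of each library by splines with 5 degrees of freedom on GC content and length, only the libraries compared, and each library left out. Groups came from the labels. Members and lists were chosen with earlier results of these data known, and all members were to be named. Of other genes, WSB2, NFKBIA, called or leading genes of the pathway list, and the 5 genes most like AREG, EREG and HBEGF were named. Named after their values were seen were the 2 pathway genes with an unadjusted p under 0.05. Python 3.11.15 (numpy 2.4.6, pandas 2.3.3, matplotlib 3.10.9) was used for the rest.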

Additional observations from a re-analysis of the deposited data

Results flagged for a closer look

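The response to TNF-α differed between KD and control cells, by the limma test of the interaction at an adjusted p under 0.05, for 3 members and for 11 of the other pathway genes. Values are the log2 response in KD cells minus that in control cells, and 23.8% of all genes were called higher and 22.3% lower in this test. HBEGF (1.04), AREG (0.73) and ERBB2 (0.51) were higher in this test. For ERBB2 the response itself was -0.11 in control and 0.40 in KD cells, or -0.24 and 0.04 with the correction for GC content and length. Of the genes of ligand release, FRMD8 (0.67) and RHBDF2 (0.53) were higher and ADAM9 (-1.34) and ADAM10 (-1.26) lower in this test. Of the genes listed as adaptors, SHC1 (0.76) and GRB2 (0.61) were higher and SOS2 (-1.51), SOS1 (-1.22) and GAB1 (-0.50) lower. Of the genes of receptor turnover and inhibition, RNF41 (0.46) was higher and CBLB (-0.42) lower. All of these values use the 2 unstimulated KD libraries, which stood apart in mitochondrial share and GC content. With the correction for GC content and length, the 3 members and GRB2, SOS2, ADAM9, ADAM10 and RNF41 were still called, and RHBDF2 (0.08), FRMD8 (0.10), SHC1 (0.33), GAB1 (0.28), SOS1 (-0.43) and CBLB (0.23) were not. GAB1 and CBLB were near or below 1 FPKM, where that correction can overshoot. Groups of 2 libraries allow no test for outlying libraries.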

How the results depend on the processing

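The count of members called in KD against control cells with TNF-α was 2. It ranged from 0 to 3 over the fits without 1 library and was 0 without the 2 unstimulated KD libraries, where fewer libraries estimate the spread, and 1 with no filter. Without 1 library, a lone library of a group is assumed to vary like the other groups. Without TNF-α, the 7 members called became 4 with the correction for GC content and length. For TNF-α in control cells, the 4 called became 2 with only the 4 libraries compared and ranged from 2 to 4 without 1 library. The interaction, with 3 called, ranged from 3 to 5 without 1 library.

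Same-numbered libraries did not deviate together in every pair of groups (correlations from -0.213 to 0.375 across genes), so the main fit did not pair them. The highest, 0.375, was between unstimulated control and unstimulated KD cells. Whether same-numbered libraries of these groups were handled together was not tested. With the replicate number as a block, 1 member was called in KD against control cells with TNF-α (HBEGF), and AREG had an adjusted p of 0.0984. The block gave 5 members without TNF-α (7 in the fit without it), 4 for TNF-α in control cells, 6 in KD cells and 3 for the interaction. With the numbers of the stimulated control libraries crossed, an alternative chosen after seeing the data, 561 genes were called higher and 195 lower for TNF-α in control cells.

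Of 783 refitted values for the 45 pairs of a member and a comparison, 706 kept direction and side of the threshold, 50 lost the call, 11 gained one and 16 changed sign. The sign changed with the correction for GC content and length in KD against control cells without TNF-α for EREG (-0.18), HBEGF (0.04) and NRG1 (-0.16), and in the interaction for EREG (0.68, then called higher), NRG1 (0.09) and ERRFI1 (0.09). Scaling to total reads moved the median of all genes to 0.13 in KD against control cells without TNF-α. It moved that median to -0.19 for TNF-α in KD cells and to -0.14 in the interaction. With this scaling the sign changed for HBEGF (0.03) in the first, EREG (-0.04) and TGFA (-0.13) in the second and TGFA (-0.19) in the third. Over the fits without 1 library, the values included both signs for ERBB3 in KD against control cells with TNF-α (-0.09 to 0.00) and in the interaction for EREG (-0.15 to 0.11), TGFA (-0.01 to 0.15), ERBB3 (-0.02 to 0.16) and ERRFI1 (-0.31 to 0.03). None of the sign changes without 1 library was in a called value, and the cause of the others was not tested. EREG, ERBB3 and BTC had 527, 258 and 25 reads in all, which limits their precision. At the level of EREG the correction for GC content and length can also overshoot.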
